A study of Mus musculus with 40 samples.

Results

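The long-chain acyl-CoA synthetases (*Acsl* genes) are the 5 genes *Acsl1*, *Acsl3*, *Acsl4*, *Acsl5* and *Acsl6*, taken by symbol from a table of 20295 genes measured by RNA sequencing in mouse brown adipose tissue (BAT). All 5 were in the table, and all 5 were among the 13277 genes that passed the filter on low counts and were tested. *Acsl6* passed it only through a few chow-fed libraries. The 40 libraries form 8 groups of 5 male mice housed at 29 °C, near thermoneutrality, after 2 to 3 weeks of acclimation. In the genetic cohort, aged 13 to 19 weeks, C-3BO mice carried *Gpr3* TTG, a Cre-dependent *Gpr3* allele at the Rosa26 locus driven by the CAG promoter, together with Ucp1-cre, which acts in *Ucp1*-expressing adipocytes. *Gpr3* encodes a Gs-coupled receptor that signals without an added ligand. Their control littermates carried either the unrecombined allele or the Cre transgene alone. In the injected cohort, 15-week-old mice labelled wildtype, littermates from crosses of *Gpr3* TTG with Ucp1-cre/ERT2 that carried either of these alone, received the β3-adrenergic agonist CL-316,243 (CL) at 1 mg/kg or saline at 10 µL/g every day for 9 days. Within each cohort mice ate chow or a high-fat diet (HFD, 60 kcal% fat) for 7 days, so that injections on HFD began 2 days before the diet changed. Each group was therefore chow control, chow C-3BO, HFD control, HFD C-3BO, chow saline, chow CL, HFD saline or HFD CL.

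Acyl-CoA synthetases join a fatty acid to coenzyme A at the cost of ATP, the step that every fatty acid must pass before it can be oxidised, esterified or built into a phospholipid. ACSL1 is known as the main isoform of adipose tissue and, in brown fat, for supplying fatty acids to mitochondrial oxidation. ACSL5 sits on mitochondria and the endoplasmic reticulum, ACSL3 on the endoplasmic reticulum and on nascent lipid droplets, and ACSL4 prefers arachidonate and other polyunsaturated fatty acids. ACSL6 is best known from the brain, where it acts on docosahexaenoate.

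On the mm9 build used for the files, *Acsl1* (NM_007981) spans chr8:47556396-47621404 on the plus strand and was counted over 3891 exon bases. *Acsl3* (NM_001136222) lies at chr1:78654400-78704318, plus strand, with 3113 exon bases. *Acsl4* (NM_019477) lies at chrX:138752536-138825078, minus strand, with 4990 exon bases. *Acsl5* (NM_027976) lies at chr19:55327859-55371118, plus strand, with 3151 exon bases, and *Acsl6* (NM_001033598) at chr11:54117326-54175041, plus strand, with 2561 exon bases. The counts are per gene over exons, so transcripts from different starts of the same gene were not told apart.

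Of the 3 members whose levels differed with treatment, *Acsl1* and *Acsl3* were alike in GC content around their listed starts, and *Acsl5* differed. Whether these starts are the ones used in BAT was not tested. The stretch from 250 bases before to 50 bases after the listed start was read from the mm9 genome, and it is shown for these 3 genes because they carry the results. Capitals mark a GC box (GGGCGG) or a CCAAT box (CCAAT) on either strand. The windows are chr8:47556146-47556445 for *Acsl1*, chr1:78654150-78654449 for *Acsl3* and chr19:55327609-55327908 for *Acsl5*, each written 5′ to 3′ on the plus strand.
Acsl1: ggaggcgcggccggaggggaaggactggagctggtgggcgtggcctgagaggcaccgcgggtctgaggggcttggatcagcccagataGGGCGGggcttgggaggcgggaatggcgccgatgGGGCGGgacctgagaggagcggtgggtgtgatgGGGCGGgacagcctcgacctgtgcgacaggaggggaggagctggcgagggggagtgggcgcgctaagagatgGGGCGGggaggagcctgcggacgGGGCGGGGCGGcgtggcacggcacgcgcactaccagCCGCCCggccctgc
Acsl3: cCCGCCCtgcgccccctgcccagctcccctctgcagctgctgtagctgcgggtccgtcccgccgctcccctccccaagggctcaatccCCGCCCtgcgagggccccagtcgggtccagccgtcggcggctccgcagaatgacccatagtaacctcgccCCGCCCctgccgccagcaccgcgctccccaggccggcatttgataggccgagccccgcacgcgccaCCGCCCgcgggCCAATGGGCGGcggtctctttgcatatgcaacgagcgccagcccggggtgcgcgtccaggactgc
Acsl5: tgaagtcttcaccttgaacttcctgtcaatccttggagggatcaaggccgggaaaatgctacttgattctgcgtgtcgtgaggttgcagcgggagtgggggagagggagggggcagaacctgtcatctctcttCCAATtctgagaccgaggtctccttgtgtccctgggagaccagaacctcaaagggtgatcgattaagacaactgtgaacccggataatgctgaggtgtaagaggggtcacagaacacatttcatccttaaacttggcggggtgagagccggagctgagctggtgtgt
GC content was 74.3% in the *Acsl1* window, 74.0% in that of *Acsl3* and 71.7% in that of *Acsl4*, against 53.0% for *Acsl5* and 58.0% for *Acsl6*. The median over 20292 promoters was 57.3%. CpG dinucleotides followed the same division, with 29, 33 and 33 in *Acsl1*, *Acsl3* and *Acsl4* and 9 and 5 in *Acsl5* and *Acsl6*, beside a median of 15. The GC box, found in 49.1% of promoters, occurred 7 times in *Acsl1*, 5 times in *Acsl3*, 2 times in *Acsl4*, 1 time in *Acsl6* and 0 times in *Acsl5*. The CCAAT box, found in 38.1% of promoters, occurred 1 time each in *Acsl3*, *Acsl5* and *Acsl6*, and in *Acsl5* it lay 117 bases before the start. The cAMP response element TGACGTCA was in 2.53% of promoters, the TATA box TATAAA in 12.7%, and neither was in any of the 5 windows. The shorter TGACG, which the response element contains, was in 24.9% of promoters and among the members in *Acsl4* alone. The nuclear receptor motif AGGTCA was in 13.6% of promoters and occurred 2 times in *Acsl6*. These are matches of letters and not sites shown to be bound.

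Library totals ran from 849126 to 15260516 counts, and the smallest belonged to HFD saline replicate 4. The floor of 3 counts used here stood for 0.206 to 3.01 CPM (counts scaled to a library of 1e+06) depending on the library, and this floor covers counting error only. *Gpr3*, counted without telling the transgene from the endogenous gene, checked the labels: it was at 266 to 463 CPM in chow C-3BO, 688 to 918 CPM in HFD C-3BO and at most 0.744 CPM in the controls of that cohort. *Ucp1*, the uncoupling protein that defines brown adipocytes, was at 1116 CPM or more in every library. The 8 brown adipocyte markers were all detected in each group. Transcripts of other organs were present in some libraries. The summed level of 10 liver markers was 86.2 to 243 CPM in HFD saline, 135 to 273 CPM in HFD CL, 413 and 387 CPM in HFD C-3BO replicates 4 and 5, and at most 6.72 CPM in the other libraries. These libraries also held epididymis markers, and all of them came from HFD mice. In the injected cohort every HFD library had them and no chow library did, so diet and whatever set these libraries apart cannot be told apart there. The summed level of 10 skeletal muscle markers ranged from 5.91 to 9290 CPM and was highest in chow control mice. In bulk tissue, fewer cells of a type and less RNA per cell cannot be told apart.

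*Acsl1* was the most abundant member in every mouse. Levels are given as CPM per kb of exon, with library totals scaled by TMM factors, so that genes of different length can be compared. In 31 of the 40 mice the order was *Acsl1*, *Acsl5*, *Acsl3*, *Acsl4*, *Acsl6*, and in the other 9 mice *Acsl4* stood above *Acsl3*. *Acsl1* exceeded *Acsl5* by 1.94 to 44.5 times per length, with a median of 8.30. In chow control mice *Acsl1* took 75.0% ± 3.91 (SD, n = 5) of the summed level of the 5 members, *Acsl5* 20.2% ± 3.22, *Acsl3* 2.82% ± 0.480 and *Acsl4* 1.81% ± 0.189. *Acsl6* took 0.150% ± 0.136.

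The shares differed with diet and with treatment. The *Acsl5* share was 21.4% ± 3.44 in chow C-3BO, 3.29% ± 0.686 in HFD control and 6.82% ± 3.29 in HFD C-3BO (SD, n = 5 each). Without HFD C-3BO replicates 4 and 5, which held liver transcripts, the last of these was 4.81% ± 0.554 (n = 3). On chow the *Acsl5* shares of C-3BO and control mice overlapped. On HFD every C-3BO mouse, at 4.25 to 12.3%, was above every control, at 2.17 to 4.01%. Every HFD mouse of this cohort had a lower *Acsl5* share than every chow mouse. In the injected cohort the share was 11.1% ± 4.34 in chow saline, 28.1% ± 3.20 in chow CL, 4.49% ± 0.623 in HFD saline and 10.3% ± 0.862 in HFD CL. The groups that received CL did not overlap with their saline groups on either diet. The *Acsl1* share had its lowest mean, 69.1% ± 2.94, in chow CL and its highest, 94.9% ± 1.04, in HFD control. The shares are descriptions and were not tested, and being shares of one total they cannot move independently.

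**Figure D1:**
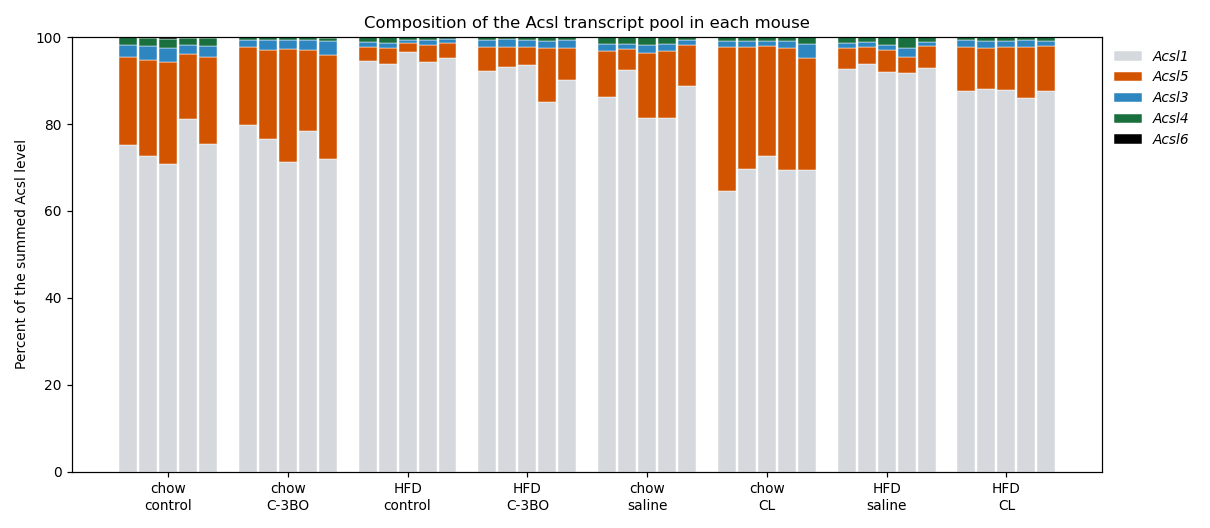
Stacked bars give, for each of the 40 mice (5 per group, replicates 1 to 5 from left to right), the percent of the summed *Acsl* level (CPM per kb of exon) taken by each member. *Acsl5* takes 20.2% on average in chow control, 3.29% in HFD control and 28.1% in chow CL, and *Acsl1* takes most of the rest in every bar.

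The summed level of the 5 members, mostly *Acsl1*, was 490 ± 55.7 CPM per kb in chow control and 1301 ± 99.6 in chow C-3BO (SD, n = 5). It was 764 ± 225 in HFD control and 1174 ± 76.0 in HFD C-3BO. In the injected cohort it was 581 ± 109 in chow saline, 942 ± 249 in chow CL, 554 ± 127 in HFD saline and 1018 ± 119 in HFD CL. Each treated group had the higher mean on its diet.

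**Figure D2:**
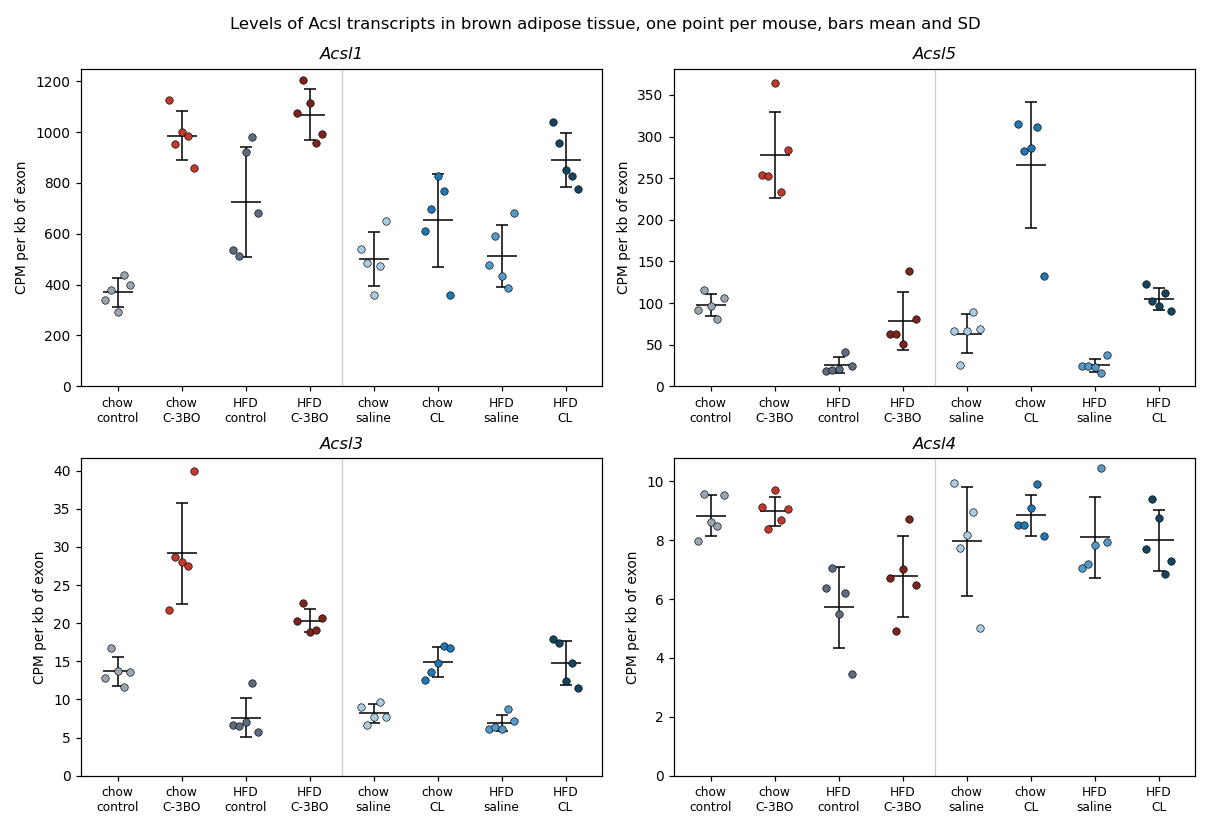
Points are single mice, 5 per group, horizontal bars group means and whiskers SD, with levels in CPM per kb of exon on linear axes that start at 0 and a different scale in each panel. *Acsl5* and *Acsl3* stand higher in each C-3BO or CL group than in its control group without overlap, *Acsl5* is low in all HFD groups without treatment, and *Acsl4* stays between 3.46 and 10.4 in all mice.

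The first comparison asked what *Gpr3* overexpression did to the family in chow-fed mice. *Acsl1*, *Acsl5* and *Acsl3* were all higher in C-3BO mice, and neither *Acsl4* nor *Acsl6* passed the test. *Acsl1* stood at 341, 378, 291, 439 and 397 CPM per kb in the controls and at 1128, 951, 1000, 985 and 860 in C-3BO. Every C-3BO mouse was above every control. The log2 fold change was 1.42 (SE 0.18, adjusted p = 2.94e-07), a fold of 2.67. *Acsl5* stood at 91.3, 115, 96.6, 81.4 and 106 CPM per kb in the controls and at 254, 253, 364, 234 and 284 in C-3BO. Again the groups did not overlap, with a log2 fold change of 1.502 (SE 0.26, adjusted p = 2.68e-05). *Acsl3* stood at 12.8, 16.7, 13.7, 11.6 and 13.6 CPM per kb in the controls and at 21.7, 28.6, 28.1, 27.6 and 39.9 in C-3BO. Its log2 fold change was 1.09 (SE 0.15, adjusted p = 1.10e-06), also without overlap. *Acsl4*, the isoform for polyunsaturated fatty acids, lay between 7.96 and 9.56 CPM per kb in the controls and between 8.37 and 9.69 in C-3BO, a log2 fold change of 0.03 (SE 0.14, adjusted p = 0.912) that became -0.17 with raw library totals as the scale. *Acsl6* was near the floor and is described apart. Of the 4 other members 3 were higher and 0 lower, where 15.8% of all genes tested were higher and 15.9% lower. The median log2 fold change was 1.25 over these 4 and -0.03 over all genes tested. Of the 8 brown adipocyte markers 4 were higher and 1 was lower. Of the 10 skeletal muscle markers 1 was lower, and of the 6 endothelial markers 2 were lower. The part of any of these in the result was not tested.

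On HFD the same 3 members were higher in C-3BO mice, with a smaller difference for *Acsl1*. *Acsl5* stood at 18.5, 19.4, 20.7, 41.7 and 24.7 CPM per kb in HFD controls and at 62.4, 62.4, 50.6, 138 and 80.7 in HFD C-3BO. The lowest C-3BO mouse was above the highest control, and the log2 fold change was 1.65 (SE 0.26, adjusted p = 5.19e-06). Without replicates 4 and 5 of HFD C-3BO it was 1.22 (adjusted p = 6.79e-04). *Acsl3* stood at 6.71, 6.57, 6.99, 12.1 and 5.71 CPM per kb in HFD controls and at 20.3, 22.7, 18.9, 19.04 and 20.7 in HFD C-3BO. These groups were well apart, with a log2 fold change of 1.41 (SE 0.16, adjusted p = 9.40e-09), the smallest adjusted p of any member in the 8 comparisons of 2 groups. *Acsl1* stood at 534, 512, 923, 980 and 680 CPM per kb in HFD controls and at 1076, 1204, 1115, 955 and 992 in HFD C-3BO. Control replicate 4 was above C-3BO replicate 4, so the groups overlapped, and the log2 fold change was 0.56 (SE 0.18, adjusted p = 0.0148). This call was lost when HFD control replicate 1 (adjusted p = 0.0691) or replicate 2 (adjusted p = 0.0734), the lowest pair of controls, was left out, and when raw totals replaced the TMM factors (adjusted p = 0.0523). *Ucp1* varied in the same group, from 2573 CPM in replicate 1 to 9442 CPM in replicate 4. *Acsl4* had a log2 fold change of 0.23 (SE 0.15, adjusted p = 0.230). Of all genes tested 19.3% were higher and 15.5% lower, and the median log2 fold change was 0.98 over the 4 members other than *Acsl6* and -0.02 over all genes. Of the brown adipocyte markers 6 of 8 were higher, and 4 of 6 endothelial markers were lower. All 9 liver markers tested were higher, with summed levels of 2.14 to 4.76 CPM in replicates 1 to 3 of HFD C-3BO, against 1.30 to 2.59 CPM in HFD controls, and the large values confined to replicates 4 and 5.

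The effect of C-3BO on HFD was set against that on chow by a test of the difference. For *Acsl1* the log2 fold change was 0.86 smaller on HFD (log2 difference -0.86, SE 0.26, adjusted p = 0.0652), which did not pass the threshold. It passed with DESeq2 (adjusted p = 0.0279) and when HFD control replicate 1 (adjusted p = 0.0429) or replicate 2 (adjusted p = 0.0367) was left out. No member differed in the edgeR test, in which 2.09% of all genes did. For *Acsl5* the log2 difference was 0.15 (SE 0.36, adjusted p = 0.896; -0.28 without HFD C-3BO replicates 4 and 5) and for *Acsl3* it was 0.32 (SE 0.22, adjusted p = 0.527), and a p above the threshold does not show that the effects were alike.

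CL was compared with saline to see whether repeated β3-adrenergic stimulation gave a like pattern in mice not carrying *Gpr3* TTG and Cre together. *Acsl5* had the largest change of the family, a fold of 4.19 on chow and 4.09 on HFD. On chow it stood at 66.4, 25.8, 66.0, 89.5 and 68.8 CPM per kb with saline and at 315, 282, 286, 311 and 133 with CL. Replicate 5 with CL was the lowest treated mouse and still above every saline mouse. The log2 fold change was 2.07 (SE 0.26, adjusted p = 8.39e-07). *Acsl3* stood at 8.96, 6.69, 7.75, 9.71 and 7.68 CPM per kb with saline and at 12.5, 13.6, 14.8, 17.0 and 16.7 with CL. The groups did not overlap and the log2 fold change was 0.87 (SE 0.16, adjusted p = 1.40e-04). *Acsl1* stood at 539, 486, 359, 472 and 650 CPM per kb with saline and at 612, 696, 827, 768 and 360 with CL. Of the 5 CL mice 4 were above the saline mean and replicate 5 was near the lowest saline mouse, with a log2 fold change of 0.38 (SE 0.18, adjusted p = 0.153). Without that replicate, whose *Ucp1* of 1644 CPM lay within the saline range of 1267 to 1865 CPM while the other CL mice were at 5943 CPM or more, the log2 fold change of *Acsl1* was 0.53 (adjusted p = 0.0248). *Acsl4* (log2 fold change 0.15, SE 0.14, adjusted p = 0.521) did not pass, nor did *Acsl6*. Of the 4 members other than *Acsl6* 2 were higher and 0 lower, beside 9.16% higher and 6.13% lower among all genes tested. The median log2 fold change was 0.63 over these 4 and -0.01 over all genes. Of the skeletal muscle markers 8 of 10 were lower with CL and 4 of 8 brown adipocyte markers higher, and their part in these differences was not tested.

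On HFD all 3 of *Acsl5*, *Acsl3* and *Acsl1* were higher with CL, each without overlap. *Acsl5* stood at 23.96, 24.9, 23.8, 15.6 and 37.1 CPM per kb with saline and at 123, 102, 96.2, 113 and 90.1 with CL, a log2 fold change of 2.03 (SE 0.27, adjusted p = 5.95e-07). *Acsl3* stood at 6.11, 6.42, 6.16, 8.70 and 7.19 CPM per kb with saline and at 18.0, 17.4, 12.4, 14.7 and 11.6 with CL, a log2 fold change of 1.16 (SE 0.17, adjusted p = 3.81e-06). *Acsl1* stood at 476, 592, 433, 385 and 682 CPM per kb with saline and at 1039, 958, 851, 825 and 777 with CL, a log2 fold change of 0.79 (SE 0.18, adjusted p = 0.00140). Every CL mouse was above every saline mouse for each of these genes. *Acsl4* lay between 7.07 and 10.4 CPM per kb with saline and between 6.85 and 9.39 with CL (log2 fold change 0.02, SE 0.15, adjusted p = 0.9502). Among all genes tested 12.7% were higher and 10.8% lower, and the median log2 fold change was 0.97 over the 4 members other than *Acsl6* and -0.01 over all genes. Here 0 of 9 liver markers were called different, with median summed levels of 106 CPM with saline and 161 CPM with CL. With CL 5 of 8 brown adipocyte markers and 2 of 6 endothelial markers were higher, and 3 of 7 macrophage markers were lower. No member had a CL effect that differed between the diets in edgeR (for *Acsl1*, log2 difference 0.41, SE 0.26, adjusted p = 0.633), and 0.0151% of all genes did.

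The effects of C-3BO and of CL differed for 1 member on chow. For *Acsl1* the C-3BO effect was larger by 1.03 on the log2 scale (SE 0.26, adjusted p = 0.0111), and it kept its call in every alternative run, chow CL replicate 5 left out included (adjusted p = 0.0229). *Acsl5* went the other way without passing (log2 difference -0.57, SE 0.36, adjusted p = 0.386), and 6.24% of all genes tested differed. On HFD no member differed between the treatments, and 1.8% of all genes did, with a log2 difference of -0.23 (SE 0.26, adjusted p = 0.781) for *Acsl1*. The treatments were given to different cohorts, with injections in only 1 of them, so cohort and treatment cannot be told apart in these differences. The paper also took tissue the day after the last CL injection, whereas C-3BO mice overexpressed *Gpr3* constitutively. The part of this timing in the differences was not tested.

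**Figure D3:**
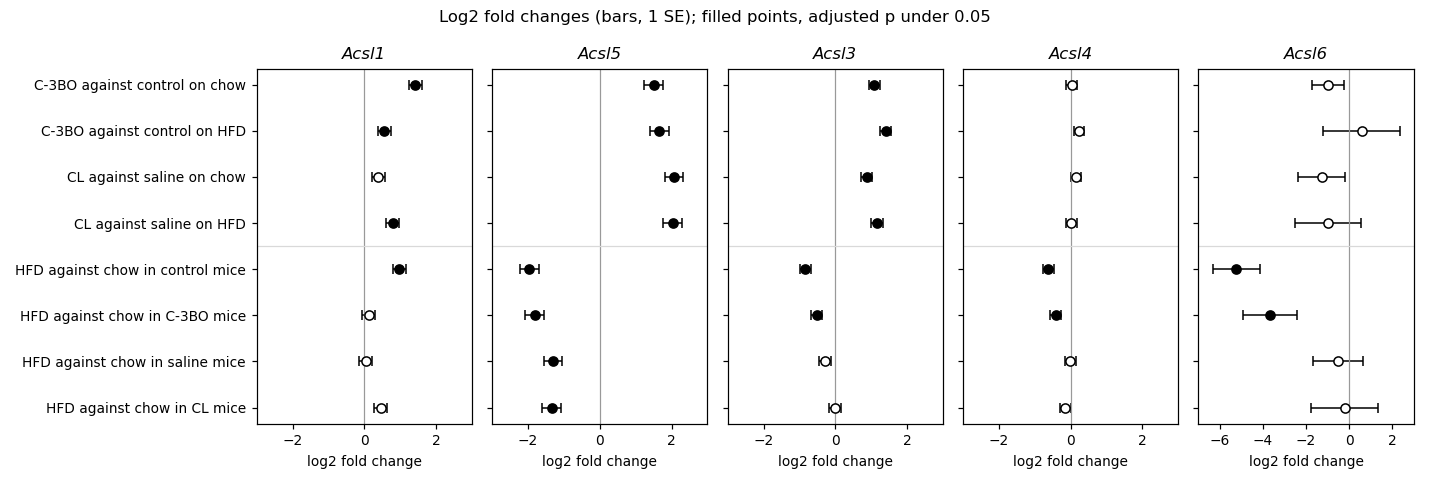
Points are log2 fold changes from edgeR in the 8 comparisons, 1 panel per gene, bars 1 SE, and filled points have an adjusted p under 0.05; the axis of *Acsl6* is longer. *Acsl5* and *Acsl3* are filled and to the right in all 4 treatment comparisons, *Acsl5* is filled and to the left in all 4 diet comparisons, and *Acsl1* alone is filled to the right for diet, at 0.98 in control mice.

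Diet divided the family. In control mice 7 days of HFD went with more *Acsl1* and less *Acsl5*, *Acsl3* and *Acsl4*. *Acsl1*, at 291 to 439 CPM per kb on chow and 512 to 980 on HFD, had a log2 fold change of 0.98 (SE 0.18, adjusted p = 6.40e-05) and no overlap. *Acsl5*, at 81.4 to 115 on chow and 18.5 to 41.7 on HFD, was lower by a fold of 3.92 (log2 fold change -1.97, SE 0.26, adjusted p = 4.60e-07), also without overlap. *Acsl5* was at 27.1% ± 5.54 of the *Acsl1* level in chow control mice and at 3.48% ± 0.750 in HFD control mice (SD, n = 5 each). *Acsl3* was lower (log2 fold change -0.84, SE 0.16, adjusted p = 6.32e-05), with HFD replicate 4 at 12.1 CPM per kb inside the chow range and the other 4 HFD mice at 6.99 or less. *Acsl4*, at 7.96 to 9.56 CPM per kb on chow and 3.46 to 7.06 on HFD, was lower without overlap (log2 fold change -0.62, SE 0.15, adjusted p = 9.9997e-04). Of the 4 members other than *Acsl6* 1 was higher and 3 were lower, where 15.4% of all genes were higher and 17.5% lower, and the median log2 fold change was -0.73 over these 4 and 0 over all genes. All 10 skeletal muscle markers were lower on HFD and all 6 endothelial markers higher. Of the 8 brown adipocyte markers 2 were higher and 3 lower. The part of these markers in the differences was not tested.

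In C-3BO mice *Acsl5* was again lower on HFD, by a log2 fold change of -1.82 (SE 0.26, adjusted p = 3.20e-06), with no overlap. *Acsl1* was at 860 to 1128 CPM per kb on chow and 955 to 1204 on HFD (log2 fold change 0.12, SE 0.18, adjusted p = 0.679). *Acsl3* (log2 fold change -0.52, SE 0.15, adjusted p = 0.0102) and *Acsl4* (-0.41, SE 0.15, adjusted p = 0.0350) were lower with overlapping groups, and these calls were less secure. That of *Acsl3* was lost without chow C-3BO replicate 5 (adjusted p = 0.0609), without HFD C-3BO replicates 4 and 5 together (adjusted p = 0.0533) and with library totals (adjusted p = 0.0543). That of *Acsl4* was lost without chow C-3BO replicate 1 (adjusted p = 0.0571), 3 (0.0539) or 5 (0.0533), without HFD C-3BO replicate 1 (0.0594), 2 (0.101) or 5 (0.0664), and with library totals (0.229). Of the 4 members other than *Acsl6* 3 were lower and 0 higher, beside 13.5% higher and 12.2% lower among all genes, and the median log2 fold change was -0.47 over these 4 and 0.03 over all genes. On HFD 9 of 10 skeletal muscle markers were lower, 5 of 6 endothelial markers higher and 8 of 9 liver markers higher. Of the 8 brown adipocyte markers 3 were higher and 0 lower.

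In the injected cohort *Acsl5* was the only member past the threshold for diet in edgeR. It was lower on HFD in saline mice (log2 fold change -1.31, SE 0.26, adjusted p = 8.03e-04), where chow saline replicate 2 at 25.8 CPM per kb fell among the HFD mice. It was lower in CL mice without overlap (log2 fold change -1.34, SE 0.26, adjusted p = 2.08e-04). *Acsl1* had a log2 fold change of 0.04 (SE 0.18, adjusted p = 0.927) in saline mice and 0.45 (SE 0.18, adjusted p = 0.0670) in CL mice. The second of these passed with DESeq2 (adjusted p = 0.0346), with library totals (adjusted p = 0.00545), among genes with at least 10 counts in every library (adjusted p = 0.0433) and without chow CL replicate 3 (adjusted p = 0.0353). *Acsl3* had a log2 fold change of -0.29 (adjusted p = 0.258) in saline mice and -0.01 (adjusted p = 0.983) in CL mice, and *Acsl4* of -0.02 (adjusted p = 0.969) and -0.15 (adjusted p = 0.500). Of the 4 members other than *Acsl6* 1 was lower in saline mice, with 7.45% of all genes higher and 8.04% lower, and 1 in CL mice, with 10.9% higher and 12.7% lower. The median log2 fold change over these 4 was -0.15 in saline mice and -0.08 in CL mice, and -0.01 over all genes in both. Liver markers were higher on HFD in 8 of 9 cases in each, and in saline mice 6 of 7 macrophage markers were higher as well. Of the 6 endothelial markers 2 were higher on HFD in saline mice and 5 in CL mice. Of the 8 brown adipocyte markers 1 was higher and 0 lower in each.

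Over the 8 groups the members took different orders. *Acsl1* ran from 1068 CPM per kb in HFD C-3BO through 985 in chow C-3BO, 890 in HFD CL, 726 in HFD control, 652 in chow CL, 514 in HFD saline and 501 in chow saline to 369 in chow control, and every pair of neighbours in that order overlapped. *Acsl5* ran from 278 in chow C-3BO and 266 in chow CL, with no overlap down to 105 in HFD CL, and then through 98.1 in chow control, 78.9 in HFD C-3BO and 63.3 in chow saline to 25.1 in HFD saline and 25.0 in HFD control, where neighbours overlapped. The highest *Acsl5* means were thus those of treated mice on chow and the lowest those of untreated mice on HFD. Single mice crossed further, with HFD C-3BO replicate 4, at 138, above chow CL replicate 5, at 133. *Acsl3* ran from 29.2 in chow C-3BO and 20.3 in HFD C-3BO, with a gap to 14.9 in chow CL and 14.8 in HFD CL. Then came 13.7 in chow control, and 8.16, 7.62 and 6.91 in chow saline, HFD control and HFD saline. Chow control did not overlap with chow saline, but HFD control replicate 4, at 12.1, was above the lowest chow control, at 11.6. For *Acsl4* all 8 group means lay between 5.72 in HFD control and 8.99 in chow C-3BO, and all neighbours overlapped.

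*Acsl6* was close to the limit of detection. It had 164 counts in all 40 libraries together and more than 3 counts in 11 of them. The 5 chow control libraries held 0, 14, 35, 29 and 13 counts and the chow C-3BO libraries 0, 9, 6, 3 and 17. On HFD the controls held 0, 0, 0, 0 and 2 and the C-3BO mice 0, 2, 0, 0 and 0. Chow saline held 9, 1, 0, 3 and 4 counts, chow CL 6, 1, 0, 0 and 0, HFD saline 1, 0, 6, 0 and 0, and HFD CL 2, 0, 0, 0 and 1. Most counts were therefore in chow mice of the genetic cohort. The HFD difference passed the test in control mice (log2 fold change -5.24, SE 1.08, adjusted p = 2.30e-04) and in C-3BO mice (-3.66, SE 1.26, adjusted p = 0.0289). The gene entered the test only through the chow groups, so these are descriptions of where its few counts lay. Pooled over 5 libraries, 91 counts in chow control against 2 in HFD control gave a ratio of 53.1 with an exact 95% interval of 14.3 to 445, and 35 against 2 in C-3BO a ratio of 15.1 with an interval of 3.87 to 129, both covering counting error only. In C-3BO mice the call was lost without HFD C-3BO replicate 1 (adjusted p = 0.0651), 3 (0.0658), 4 (0.0516) or 5 (0.0560), without chow C-3BO replicate 5 (0.109), and without HFD C-3BO replicates 4 and 5 together (0.106).

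The counts of *Acsl6* lay where skeletal muscle transcripts were. The summed level of the 10 muscle markers was 148 to 9290 CPM (median 3377) in the 11 libraries with more than 3 *Acsl6* counts and 5.91 to 1264 CPM (median 91.6) in the other 29. In chow control libraries the sum was 723 to 9290 CPM, and in HFD controls 5.91 to 203 CPM. All 10 muscle markers were detected in every group. The part of muscle RNA in the *Acsl6* difference was not tested.

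**Figure D4:**
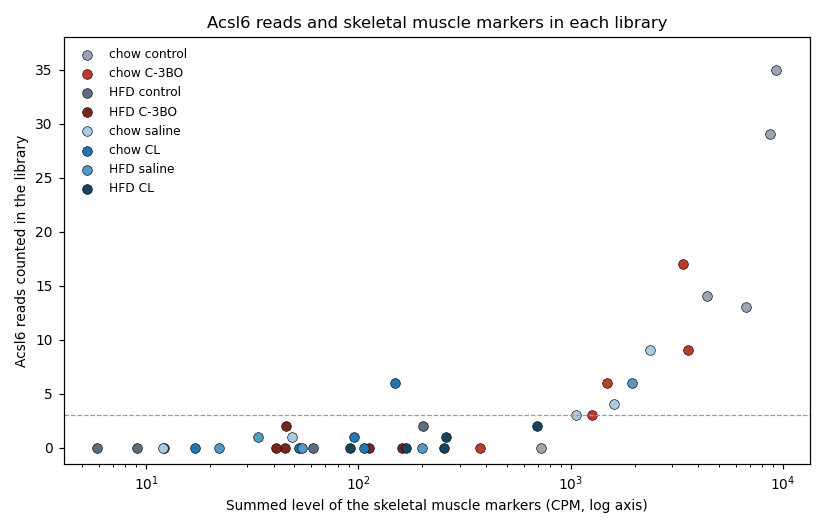
Each point is 1 of the 40 libraries, with the summed level of 10 skeletal muscle markers (CPM, log axis) across and the reads counted for *Acsl6* upward; the dashed line marks 3 counts. The libraries with the most *Acsl6* reads, 35 and 29, are chow controls with muscle sums of 9290 and 8690 CPM.

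The 4 genes whose log2 CPM followed each member most closely over the 40 libraries were found by Pearson's r among all genes tested, as a description. The libraries share groups, depth and tissue make-up, and r over them reflects the differences between groups. For *Acsl1* they were *Cluh* (r = 0.963), *Crat*, the carnitine acetyltransferase (0.954), *Mgll*, the monoglyceride lipase (0.946), and *Slc25a34* (0.946). For *Acsl3* they included *Elovl3*, a fatty acid elongase of brown fat (0.911), *Atp6v0e* (0.907) and *Mapre3* (0.901). For *Acsl5* they were *Sorl1* (0.968), *Mtor* (0.948), *Echdc1* (0.945) and *Cyb5b* (0.944). *Acsl4* was followed less closely, by *Osbpl8* (0.834), *Pds5b* (0.833), *Ccdc50* (0.813) and *Ddx3y* (0.801). *Acsl6* was nearest to *Yipf7* (0.922), *Popdc3* (0.918) and the muscle genes *Tpm2* (0.909), a tropomyosin, and *Myl1* (0.905), a myosin light chain. By Spearman's rank correlation *Osbpl8* and *Ddx3y* were at rank 23 and 32 for *Acsl4*, and *Tpm2* and *Myl1* at rank 37 and 85 for *Acsl6*. The other genes named were at rank 9 or better. No member was among the 4 nearest genes of another. Between members, r was 0.780 for *Acsl3* and *Acsl5*, 0.522 for *Acsl1* and *Acsl3*, 0.303 for *Acsl1* and *Acsl5* and -0.228 for *Acsl1* and *Acsl4*.

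Other enzymes that make acyl-CoA were followed as a list of 20 genes, fatty acid transport proteins (Slc27a) and medium- and short-chain synthetases among them, of which 15 were tested. In C-3BO mice 6 were higher and 1 lower on chow (15.8% and 15.9% of all genes), with a median log2 fold change of 0.25, and 6 were higher and 0 lower on HFD (19.3% and 15.5% of all genes), with a median of 0.51. The largest changes on chow were in *Acss3* (log2 fold change 1.33), *Slc27a1* (1.26) and *Slc27a2* (0.78), and on HFD in *Slc27a5* (2.86), *Acsf2* (1.34) and *Slc27a2* (1.13). *Slc27a5*, the bile acid-CoA ligase of liver, was at most 0.576 CPM in chow libraries and HFD controls. It passed the filter on low counts only through the other HFD groups, so its calls, included in the counts of this list, are descriptions. It was at 0.952, 1.13 and 1.47 CPM in replicates 1 to 3 of HFD C-3BO and at 4.48 and 5.735 CPM in replicates 4 and 5, the libraries with liver transcripts. Without those replicates its log2 fold change was 1.72 (adjusted p = 0.0193), and the list had 6 higher and 0 lower, with *Aacs* no longer called (log2 fold change 0.44, adjusted p = 0.249, against 0.93 and 0.00625 with all 5) and *Slc27a1* called (adjusted p = 0.0269, against 0.0645). With CL, 4 were higher and 1 lower on chow (median 0.05, beside 9.16% higher and 6.13% lower among all genes) and 4 higher and 0 lower on HFD (median 0.09, beside 12.7% and 10.8%). *Aacs*, the acetoacetyl-CoA synthetase, led in both, with log2 fold changes of 1.15 and 1.14, followed by *Acsf3* (0.71) and *Acsf2* (0.61) on chow and by *Acsf2* (1.07) and *Acsf3* (0.70) on HFD.

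The routes that use acyl-CoA were followed through further lists, each counted in C-3BO on chow, C-3BO on HFD, CL on chow and CL on HFD, in that order. Among all genes tested, 15.8%, 19.3%, 9.16% and 12.7% were higher in these comparisons and 15.9%, 15.5%, 6.13% and 10.8% lower, and the counts of the short lists are to be read against these shares. Of the 5 genes listed for import into mitochondria, *Cpt2*, the inner carnitine palmitoyltransferase, and *Slc25a20*, the carnitine-acylcarnitine carrier, were higher in all 4 treatment comparisons. *Cpt2* had log2 fold changes of 1.00 and 1.32 in C-3BO mice on chow and HFD and of 0.79 and 1.30 with CL, and *Slc25a20* of 0.91, 0.92, 1.07 and 1.18 in the same order. Of the *Cpt1* genes, *Cpt1c* was lower in C-3BO on chow (log2 fold change -1.10), at a mean of 1.45 CPM against 3.05 CPM in controls. *Cpt1a* was lower with CL on chow (-0.50). *Cpt1b*, the muscle and brown fat form, was higher in C-3BO on chow (0.29) and with CL on HFD (0.32). In the list as a whole 3, 2, 2 and 3 of 5 were higher and 1, 0, 1 and 0 lower, with medians of 0.29, 0.17, 0.26 and 0.32.

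Of 13 genes of triacylglycerol synthesis, 8, 6, 4 and 6 were higher in these comparisons and 0 lower in any, with median log2 fold changes of 0.40, 0.46, 0.22 and 0.48. *Agpat2*, which acylates lysophosphatidate, had log2 fold changes of 1.75, 1.78, 1.46 and 1.91, and *Mogat1*, a monoacylglycerol acyltransferase, of 1.29, 2.48, 1.39 and 2.36. The gene that came next was *Agpat6* (1.14), *Dgat1* (0.91), *Gpam* (0.53) and *Dgat2* (0.80), in that order of comparisons. Of 5 genes that reacylate phospholipids, 1 was higher in C-3BO on chow, in C-3BO on HFD and with CL on HFD, in each case *Lpcat3* (0.68, 0.73 and 0.39), a count near the share of all genes, and with CL on chow *Mboat7* was lower (-0.43). The median log2 fold changes were 0.10, -0.31, -0.26 and 0.08.

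Of 7 acyl-CoA thioesterases, which split acyl-CoA back into fatty acid, 5, 3, 3 and 3 were higher and 1, 0, 1 and 0 lower, with medians of 0.84, 0.62, 0.19 and 0.59. *Acot12* had log2 fold changes of 2.88, 6.04, 3.93 and 3.80 from low levels: it was at most 0.178 CPM in HFD controls, below the floor in all 5, and at 3.48 to 9.14 CPM in HFD C-3BO, so that these fitted values are no bounds. In chow saline and HFD saline every library held 3 counts or fewer. *Acot12* passed the filter on low counts through the groups where it was higher, mainly the treated ones. Its calls, included in each of the counts above, are therefore descriptions. *Acot1* led the list in C-3BO on chow (3.31, SE 0.78) and was second to *Acot12* in C-3BO on HFD (2.23, SE 0.73). Its levels were low as well, with a control mean of 0.620 CPM on chow and 0.942 CPM on HFD. *Acot11*, a thioesterase of brown fat, was higher in C-3BO on chow (1.52) and with CL on chow (1.66) and HFD (1.23). Next came *Acot8* in C-3BO on HFD (0.81) and with CL on HFD (0.59), and *Acot2* with CL on chow (0.71). Of 7 acyl-CoA and fatty acid binding proteins 3, 2, 3 and 2 were higher and 2, 1, 0 and 0 lower, with medians of 0.13, 0.16, 0.28 and 0.27. The largest changes were in *Acbd4* (1.06), *Fabp3* (-0.84) and *Fabp4* (0.48) in C-3BO on chow, *Acbd4* (0.59), *Acbd5* (0.54) and *Fabp3* (-0.53) in C-3BO on HFD, *Fabp5* (1.05), *Fabp4* (0.47) and *Acbd5* (0.35) with CL on chow, and *Fabp5* (0.81) and *Acbd5* (0.32) with CL on HFD. Without HFD C-3BO replicates 4 and 5, an alternative chosen after the data were seen, the counts of the lists in C-3BO on HFD were equal but for *Fabp3*, no longer called (adjusted p = 0.0816).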

How the data were processed

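RNA from BAT of 40 mice was made into TruSeq poly(A) libraries and sequenced on an Illumina instrument, 1 library per mouse. The authors mapped the reads by STAR on the mm9 build, passed them through HOMER and took exon counts from iRNA-seq; versions and strandedness are not given in the sources used here. The deposited values are raw counts per gene, whole numbers without normalization, with genes named by RefSeq accession and symbol. Reads that a gene shares with an overlapping gene therefore cannot be told apart.

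Groups follow the sample titles. Counts were tested in R 4.3.3 with edgeR 4.0.16 (glmQLFit and glmQLFTest, 1 mean per group over all 40 libraries, TMM factors, filterByExpr with a minimum count of 10), two-sided, with Benjamini-Hochberg adjustment over 13277 genes. An adjusted p under 0.05 was called. SE is the absolute log2 fold change divided by the square root of F. The test was checked on simulated data. Totals ran from 849126 to 15260516 counts. Levels are CPM per kb of counted exon. Promoters were read from the mm9 genome with Python 3.11.15, both strands searched, and figures were drawn with matplotlib 3.10.9.

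In all, 8 simple comparisons and 4 differences of effects were made. Alternatives were DESeq2 1.42.0, library totals, RLE factors, other count filters, the compared groups alone, a replicate block, each library left out, and HFD C-3BO replicates 4 and 5 left out. Genes named are the 5 members, in each treatment comparison the 3 largest called changes of each pathway list, the 4 genes closest to each member (1 of those for *Acsl3* is not reported here), and *Gpr3*, *Ucp1* and markers as checks. *Slc27a5* and *Acot12* were given by sample after their values were seen. Members and lists were chosen with earlier results of these data known.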

Additional observations from a re-analysis of the deposited data

Results flagged for a closer look

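In 8 of 40 sets of 5 mice (5 genes in 8 groups) the highest or lowest mouse stood far from the others by Dixon's criterion. Chance meets it in about 1 of 20 sets of normally distributed values, a rate that does not hold for the few counts of *Acsl6*. In HFD control mice replicate 4 had the highest *Acsl3*, at 12.1 CPM per kb, and the highest *Acsl5*, at 41.7. In chow CL mice replicate 5 had the lowest *Acsl5*, at 133 CPM per kb. In HFD saline mice replicate 4 had the highest *Acsl4*, at 10.4 CPM per kb, from 52 counts in the smallest library. The other 4 sets were of *Acsl6*, each from a single library with few counts. They were HFD control replicate 5 (0.0931 CPM per kb, 2 counts), HFD C-3BO replicate 2 (0.0882 CPM per kb, 2 counts), chow CL replicate 1 (0.230 CPM per kb, 6 counts) and HFD saline replicate 3 (0.284 CPM per kb, 6 counts). Of the tested differences between effects, that of *Acsl1* between C-3BO and CL on chow passed, at 1.03 on the log2 scale. Every C-3BO mouse was above all controls, while the CL and saline mice overlapped.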

How the results depend on the processing

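Of 23 member results called in edgeR, 19 kept their direction and call in every alternative run in which they were tested. The other 4 were *Acsl1* in C-3BO on HFD and *Acsl3*, *Acsl4* and *Acsl6* for HFD in C-3BO mice, with the values given beside them. Among the 19 was *Acsl6* for HFD in control mice, tested in 15 alternative runs against 17 for each other member. *Acsl6* entered the test only through the chow groups, so its calls are descriptions. Raw library totals, used instead of TMM factors, shifted the median gene by -0.20 to -0.14 on the log2 scale in the treatment comparisons and by 0.15 to 0.18 in the diet comparisons. Counting *Acsl6*, the number of members changed by HFD in C-3BO mice went from 4 to 2 with library totals and to 2 without HFD C-3BO replicates 4 and 5, and from 1 to 4 with single libraries left out. That for HFD in CL mice went from 1 to 2 with library totals, with at least 10 counts required in every library and with DESeq2, and from 1 to 2 with single libraries left out. The count of members whose C-3BO effect differed between diets went from 0 to 1 with DESeq2 and from 0 to 1 with single libraries left out. The cause was not tested.

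The results that changed sign were all uncalled. With library totals, *Acsl4* became -0.17 for C-3BO on chow, -0.13 for CL on HFD, 0.16 for HFD in saline mice and 0.0212 for HFD in CL mice, and *Acsl3* became 0.16 for HFD in CL mice. The last was 0.0154 with RLE factors, 0.0211 with at least 10 counts required, 0.0109 with the compared groups alone and 0.0149 with DESeq2. *Acsl4* for C-3BO on chow was -3.20e-04 with at least 10 counts required, and for HFD in saline mice 0.00151 with the compared groups alone. Without HFD C-3BO replicates 4 and 5 the difference of C-3BO effects between diets was -0.28 for *Acsl5*. With single libraries left out, *Acsl4* ran from -0.0087 to 0.0575 for C-3BO on chow, from -0.0471 to 0.10 for CL on HFD, from -0.15 to 0.0874 for HFD in saline mice and from -0.19 to 0.00274 for C-3BO minus CL on chow. *Acsl3* ran from -0.0881 to 0.0703 for HFD in CL mice and *Acsl1* from -0.0777 to 0.15 for HFD in saline mice. *Acsl5* ran from -0.17 to 0.40 for the C-3BO and from -0.21 to 0.18 for the CL difference between diets. *Acsl6* ran from -1.73 to 2.32 for C-3BO on HFD, -1.98 to 1.02 for CL on HFD, -2.51 to 0.26 for HFD in saline mice, -1.23 to 1.76 for HFD in CL mice, -0.77 to 3.28 and -0.70 to 2.30 for the C-3BO and CL differences between diets, and -0.45 to 2.26 and -0.78 to 3.27 for C-3BO minus CL on chow and HFD.

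Replicate numbers recur in the groups, but in no comparison were the deviations of all 5 same-numbered pairs correlated over 0.1, so the numbers were not taken to pair mice. The mean correlation ran from -0.136 to 0.172, the highest in C-3BO against control on chow, where 3 of 5 pairs were over 0.1 (up to 0.444) and other pairs averaged -0.0411. With the number as a replicate block the counts of members called were 3, 3, 2 and 3 for the treatments and 5, 4, 1 and 1 for HFD, as without it, and *Acsl4* for HFD in saline mice became 0.00796. Depth limits *Acsl6* most, since a library of 849126 counts needs 3.01 CPM for 3 counts.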

Other observations

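The lists of related enzymes were also counted for diet. Among all genes tested, 15.4% were higher on HFD and 17.5% lower in control mice, 13.5% and 12.2% in C-3BO mice, 7.45% and 8.04% in saline mice, and 10.9% and 12.7% in CL mice. Of the 15 other acyl-CoA synthetases tested, 5 were lower and 0 higher in control mice, 3 lower and 1 higher in C-3BO mice, 8 lower and 1 higher in saline mice and 7 lower and 1 higher in CL mice. Of the 5 genes listed for mitochondrial import 3 were higher and 0 lower on HFD in control and in C-3BO mice, and 1 was higher in saline and in CL mice. Of 13 genes of triacylglycerol synthesis 5 were higher and 1 lower in control mice, 3 higher in C-3BO mice, 1 higher and 2 lower in saline mice, and 1 higher and 1 lower in CL mice. Without HFD C-3BO replicates 4 and 5, the libraries of that group with liver transcripts, the import count in C-3BO mice was 2 higher and 0 lower, and the counts of the other 2 lists were equal to those above. In the injected cohort all HFD libraries held liver transcripts, so these and diet cannot be told apart.

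*Gpr3* stood at 9.15 CPM in chow CL replicate 3 and at 0.144 to 0.711 CPM in the other 4 mice of that group.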
